A study of Mus musculus with 3 samples.

Results

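Runx3-bound regions that lie inside protein-coding genes, 5 kb or more but under 50 kb away from any transcription start site (TSS), were examined in resting splenic natural killer cells (NKC). They made up 3079 of the 15524 regions in the Runx3 ChIP-seq peak list, which is 19.8% (95% Wilson interval 19.2 to 20.5%), and are called intragenic peaks below. A region was taken when its midpoint met both conditions, with the TSS of all transcripts, coding and noncoding, of the GENCODE M1 annotation on the mm9 build. The rule used positions alone and no measure of binding strength. Of the 5662 Runx3 regions in this distance class, the other 2583 lay outside coding genes and served as the intergenic comparison.

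Runx3 is a transcription factor that binds DNA together with its partner Cbfb at a short consensus, and it is known for its part in the development and activation of NKC and cytotoxic T cells. Binding away from promoters is commonly found at enhancers, which act on a promoter from a distance and carry monomethylated lysine 4 of histone H3 (H3K4me1). Many enhancers of lymphocyte genes lie in introns, where the host gene is one candidate target but not the only one, since an enhancer can reach past it to a neighbour.

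The series holds 3 chromatin samples, 1 for each antibody, all from splenic NKC of ICR mice that were used fresh, without activation. Chromatin was precipitated with a polyclonal anti-Runx3 antibody made by the authors, with a monoclonal anti-H3K4me1 antibody, or with non-immune rabbit serum (NIS), the background control. The labels give a negative selection followed by a sort for NKp46+ cells, whereas the methods of the study give DX5+ for the NKC sort; age and sex were not given in the sources used here. The files hold 15524 Runx3 and 49902 H3K4me1 regions as positions with no heights or read counts, so the depth behind each region is unknown. Each list was called on the joined reads of the repeats, so no spread between replicates could be measured, no test was run, and the intervals given cover counting error only.

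The label was set beside marker genes, whose lists were chosen with earlier results of these data known, so the counts are descriptions. All 15 genes of an NKC marker list had a Runx3 region inside them or within 5 kb (1 to 6 regions a gene), and H3K4me1 regions covered 57.4 to 93.0% of their bodies, with a median of 80.7%. The same count was 6 of 16 for B cell markers, 9 of 16 for T cell markers and 5 of 18 for myeloid markers. It was not made over all coding genes, and neighbouring genes can share a region in it. Median H3K4me1 coverage on these lists was 7.47%, 12.4% and 8.11%, and the highest coverage of a gene was 35.3%, 80.3% and 84.9%. The highest values of the T cell and myeloid lists thus lay inside the NKC range. Among the genes on the B cell, T cell and myeloid lists, Ms4a1, Cd4, Cd8a, Csf1r and Lyz2 had no Runx3 region inside them or within 5 kb. Tcf7 had 5, Cd28 had 4, and Pax5 and Itgax had 2 each. These 9 were named after their values were seen. Neither their use by NKC nor the part of other cells in the Runx3 regions was tested.

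The letters of Runx3 binding are shown first for the host genes that held the most intragenic peaks. In each of them the peak with the most RUNX matches in its central 200 bp was chosen, and these 200 bp are printed on the plus strand of mm9. Capitals mark a match to the RUNX consensus, whose common form is TGTGGT and whose second form is TGTGGC; the forms with a CpG are TGCGGT and, with a final C, TGCGGC, and reverse complements count alike. The peak in Zmiz1 was at chr14:26457017-26457216 in intron 7, the one in Runx1 at chr16:92710681-92710880 in intron 2, and the one in Itpr1 at chr6:108485443-108485642 in intron 60. The peaks in Rapgef1 (chr2:29480369-29480568) and Rin3 (chr12:103526977-103527176) lay in intron 1. The peak in Prex1 (chr2:166435890-166436089) was in intron 9 and the peak in Fyn (chr10:39122372-39122571) in intron 2.
Zmiz1: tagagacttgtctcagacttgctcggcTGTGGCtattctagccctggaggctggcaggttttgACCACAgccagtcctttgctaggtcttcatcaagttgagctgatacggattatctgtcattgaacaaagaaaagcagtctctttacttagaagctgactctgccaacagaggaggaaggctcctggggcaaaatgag
Runx1: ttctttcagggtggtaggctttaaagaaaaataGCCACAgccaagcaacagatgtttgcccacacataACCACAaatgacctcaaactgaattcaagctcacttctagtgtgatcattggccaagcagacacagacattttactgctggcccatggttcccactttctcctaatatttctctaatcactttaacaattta
Itpr1: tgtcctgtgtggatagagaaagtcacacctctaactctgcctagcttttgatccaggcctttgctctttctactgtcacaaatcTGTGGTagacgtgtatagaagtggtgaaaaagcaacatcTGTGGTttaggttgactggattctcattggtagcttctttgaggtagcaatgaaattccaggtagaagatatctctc
Rapgef1: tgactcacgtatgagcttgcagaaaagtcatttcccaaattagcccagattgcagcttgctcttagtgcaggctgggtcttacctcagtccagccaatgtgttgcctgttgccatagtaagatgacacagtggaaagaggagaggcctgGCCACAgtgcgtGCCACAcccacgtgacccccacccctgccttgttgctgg
Rin3: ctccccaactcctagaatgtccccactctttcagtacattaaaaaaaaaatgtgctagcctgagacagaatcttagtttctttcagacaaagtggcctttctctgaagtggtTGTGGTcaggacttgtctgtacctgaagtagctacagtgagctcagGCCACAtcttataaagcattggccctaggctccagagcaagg
Prex1: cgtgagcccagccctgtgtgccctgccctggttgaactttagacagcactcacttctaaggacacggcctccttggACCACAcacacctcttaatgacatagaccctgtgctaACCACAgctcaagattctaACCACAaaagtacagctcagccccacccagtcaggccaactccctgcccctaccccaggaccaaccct
Fyn: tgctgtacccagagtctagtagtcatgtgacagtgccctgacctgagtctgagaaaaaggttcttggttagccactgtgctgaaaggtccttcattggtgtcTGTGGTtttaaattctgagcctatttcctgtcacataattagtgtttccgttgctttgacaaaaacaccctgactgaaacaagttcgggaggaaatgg
Prex1 carried 3 matches in its 200 bp, Fyn carried 1 and the other 5 carried 2 each. All 7 of these peaks overlapped an H3K4me1 region.

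Coding genes held more Runx3 regions than their share of the sequence. Of the 1194 Mb of sequence that lies 5 to 50 kb from a TSS, 527 Mb or 44.1% was inside coding genes, and it held 54.4% of the regions of this class (53.1 to 55.7%). The density was 5.85 intragenic peaks per Mb against 3.87 per Mb of intergenic sequence. H3K4me1 regions covered 6.71% of the intragenic and 3.0% of the intergenic sequence of this class, so the order turned when the density was taken over H3K4me1-marked sequence alone, with 84.2 midpoints per Mb inside genes and 120.7 outside. The intragenic peaks were 820 bp wide in the median (quartiles 697 and 960 bp, range 329 to 2599 bp), close to the 812 bp of the intergenic ones.

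Nearly all intragenic peaks lay in marked chromatin. Of the 3079, 2987 touched an H3K4me1 region by 1 bp or more, that is 97.0% (96.4 to 97.6%), where 95.7% of all Runx3 regions and 94.9% of the intergenic ones did. The overlap itself was thus near the background of the whole list. The width of the marked region differed more. Intragenic peaks lay in H3K4me1 regions of 5571 bp in the median against 3736 bp for intergenic peaks, and 28.3% of the overlapping intragenic peaks were in regions of 10 kb or more against 13.4%. Runx3 regions 1 to 5 kb from a TSS stood between, at 4984 bp and 21.5%. These medians count a marked region once for each peak in it. With each marked region counted once, the median for intragenic peaks was 4429 bp. The same value was not computed for intergenic peaks, so the difference by region is unknown. The density of midpoints outside H3K4me1 was 0.208 per Mb, from 102 peaks. In all, 2403 H3K4me1 regions held an intragenic peak, 391 of them held more than 1, and the fullest held 8.

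The density was lower at greater distance from the TSS. It was 7.04 intragenic peaks per Mb at 5 to 10 kb, 6.28 at 10 to 20 kb, 5.26 at 20 to 30 kb, 4.70 at 30 to 40 kb and 3.65 at 40 to 50 kb. Intergenic regions had the same order, from 4.85 to 2.52 per Mb, and were below the intragenic ones in each of the 5 bins. H3K4me1 coverage of the intragenic sequence was 8.52% in the nearest bin and 4.29% in the farthest. Along the body of the host the density was 6.35, 6.36, 5.74 and 4.96 per Mb in 4 equal parts from the 5′ end to the 3′ end. The nearest TSS belonged to the host gene itself for 2201 peaks, or 71.5% (69.9 to 73.1%), to another coding gene for 11.1% and to a noncoding gene for 17.4%. These shares were not computed for the eligible sequence, so what position inside a gene alone would give is unknown. The peaks nearest to the edges of the rule were in Pgs1, Tab2 and Erbb2, at 5000, 5001 and 5006 bp, and in Hivep1, Man1c1 and Tram2, at 49682, 49700 and 49851 bp. Just outside stood regions in Syp, Pank1 and Slc41a2, at 4993, 4995 and 4997 bp, and in Arhgap26, Ppfibp2 and Ikzf1, at 50023, 50052 and 50092 bp.

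First introns held more intragenic peaks per Mb than later introns. First introns are usually the longest of a gene and often hold enhancers, and each midpoint was classed by the coding transcript of the host that has the longest coding sequence. By that transcript, 988 peaks or 32.1% (30.5 to 33.8%) were in the first intron, which made up 22.7% of the eligible sequence, meaning the sequence inside coding genes that the distance rule allows. Later introns held 1784 peaks, 57.9% of the total on 65.8% of the sequence. Coding exons held 73 peaks, other exons 58, and 176 midpoints were inside the gene but outside this transcript. The density was 8.25 per Mb in first introns and 5.15 per Mb in later introns, a ratio of 1.6 (95% counting interval 1.48 to 1.73).

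The difference was there at each distance and in the pooled genes that had both kinds of intron. The ratio was 1.63 at 5 to 10 kb (1.42 to 1.86), 1.61 at 10 to 20 kb (1.41 to 1.84) and 1.45 at 20 to 50 kb (1.26 to 1.67). In the 5654 genes that had eligible sequence in both kinds of intron, it was 1.64 (1.5 to 1.79). Peaks and sequence were summed over these genes, so introns were not compared inside single genes. By intron number the density stepped down from 8.25 per Mb in intron 1 through 6.93 in intron 2, 6.35 in intron 3 and 5.10 in intron 4 to 4.2 in intron 5 and beyond. The introns that held the peaks were 40.4 kb long in the median for first introns and 13.2 kb for later ones.

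Per Mb of H3K4me1-marked sequence the order of first and later introns was the opposite. H3K4me1 regions covered 12.1% of eligible first-intron sequence and 5.14% of later-intron sequence. Over marked sequence alone the density was 66.6 midpoints per Mb in first introns and 96.4 in later introns, a ratio of 0.691 (0.639 to 0.748), and it was below 1 in each of the 3 distance bins. First-intron peaks lay in wider marked regions, with a median of 7747 bp against 4884 bp, and 41.0% of them against 22.7% were in regions of 10 kb or more. The share of peaks that overlapped H3K4me1 was 97.8% in first introns and 96.6% in later introns, and the RUNX consensus was in the central 200 bp of 73.7% and 74.2%, so on these measures the intervals of both classes overlapped.

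**Figure D1:**
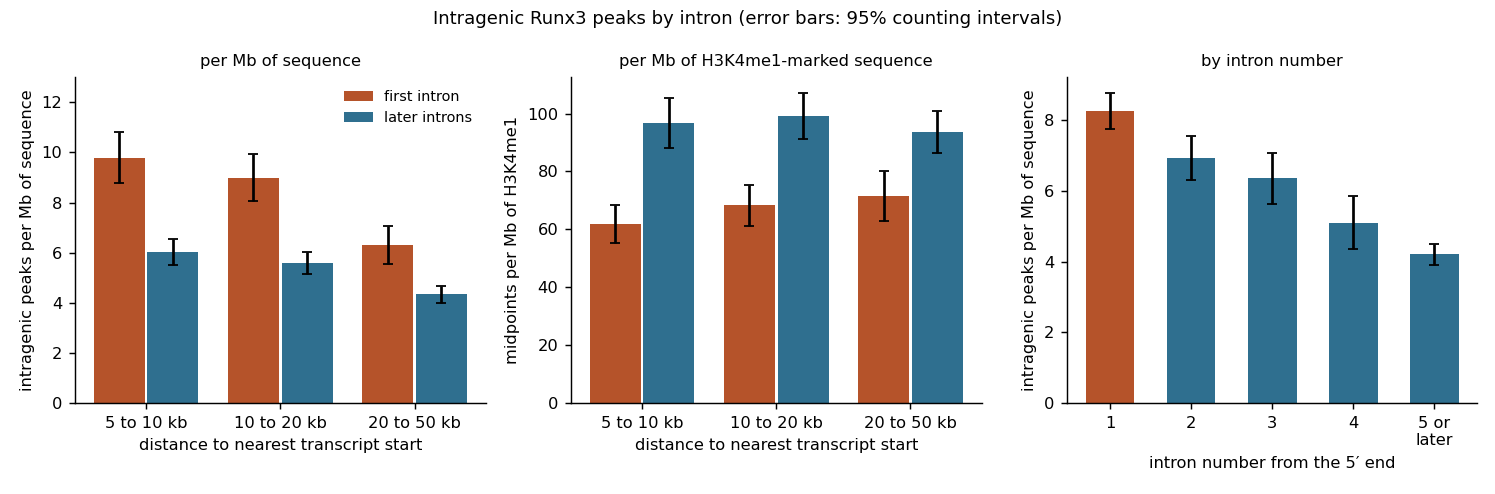
Bars give the density of intragenic Runx3 peaks in first introns (orange) and later introns (blue), as peaks per Mb of sequence by distance to the nearest TSS (left), as midpoints per Mb of H3K4me1 regions (middle) and per Mb by intron number (right), with 95% counting intervals. First introns are higher on the left in all 3 bins and lower in the middle panel, and the density on the right goes down from 8.25 to 4.2 per Mb.

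The intragenic peaks fell in 1764 host genes, which is 12.3% of the 14382 coding genes that have eligible sequence. Most hosts, 1117 of them, held 1 peak, 334 held 2, 141 held 3, 74 held 4 and 98 held 5 or more. The 647 hosts with 2 or more were 36.7% of all hosts (34.5 to 38.9%), and 1993 peaks, 64.7% of the total, lay in such a gene. The 98 hosts with 5 or more held 640 peaks, or 20.8%. Hosts were long genes, with a median length of 73.0 kb against 27.6 kb for genes with eligible sequence and no intragenic peak, and with a median of 46.9 kb against 15.3 kb of eligible sequence. The share of genes that were hosts was higher with more eligible sequence, from 1.73% in the lowest quartile of genes through 7.69% and 12.9% to 25.8% in the highest. Of the 103 genes with at least 300 kb of eligible sequence, 29 were hosts and 74 held no intragenic peak.

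Hosts with an intragenic peak more often had Runx3 at their own promoter. A region under 1 kb from a TSS of the gene was found at 810 hosts, 45.9% (43.6 to 48.2%), against 29.0% (28.2 to 29.8%) of the genes with eligible sequence and no intragenic peak, where the background over both was 31.1%. The share was 43.4% in hosts with 1 peak, 46.4% with 2, 48.8% with 3 or 4 and 66.3% (56.5 to 74.9%) with 5 or more. Among genes in the highest quartile of eligible sequence, it was 44.1% for hosts and 21.6% for the rest. Genes with a promoter peak had 10.7 intragenic peaks per Mb and those without had 4.10 per Mb. Their H3K4me1 coverage differed too, at 12.7% and 4.55% of eligible sequence, and per Mb of marked sequence the densities were 82.0 and 86.8. The other 954 hosts had no Runx3 region at a promoter.

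**Figure D2:**
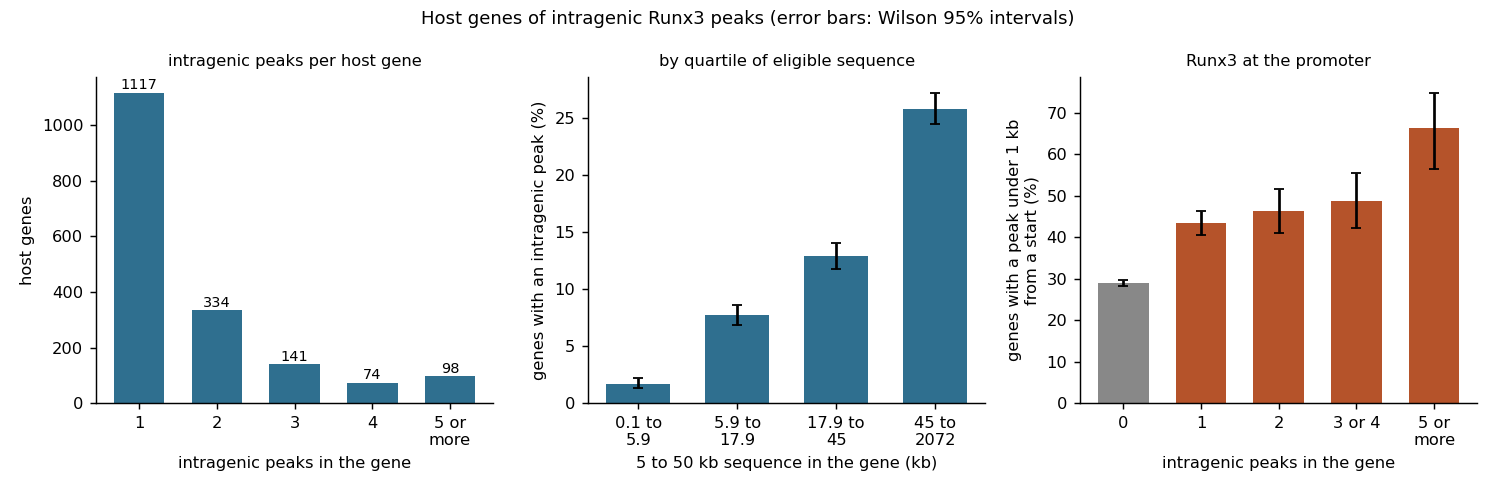
Bars give the number of host genes by the number of intragenic peaks they hold (left), the percent of coding genes that hold one by quartile of eligible sequence in kb (middle), and the percent of genes with a Runx3 region under 1 kb from their own TSS (right), with Wilson 95% intervals in the last 2 panels. Hosts with 1 peak are the most frequent (1117 genes), the share of hosts goes up from 1.73% to 25.8%, and the promoter share goes up from 29.0% in genes with no intragenic peak to 66.3% in hosts with 5 or more.

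The spacing of peaks in the same gene was measured, without a reference spacing for the peak number and eligible sequence of each gene. Over 1338 pairs of neighbouring intragenic peaks in a gene, with the 16 gene models that hold 5 or more other coding genes left out of this count, the spacing was 8.17 kb in the median (quartiles 3.10 and 22.6 kb), and 56.0% of pairs were under 10 kb apart. In 43.7% of the pairs both peaks were in 1 and the same H3K4me1 region. The smallest spacing was 653 bp.

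Outside those 16 gene models, the hosts with the most intragenic peaks differed in what they are known to do. Zmiz1, a transcriptional coactivator related to the PIAS proteins, and Runx1, another member of the Runx family, held 13 intragenic peaks each. Itpr1, the inositol trisphosphate receptor that releases calcium from the endoplasmic reticulum, held 12. Rapgef1, an exchange factor for the GTPase Rap1, and Rin3, an exchange factor for Rab5, held 11 each. Prex1, an exchange factor for Rac, and Fyn, a Src family kinase, held 10 each. Eif2c2, which encodes Argonaute2, and Galnt2, an enzyme that starts O-glycosylation of proteins, held 9 each. Lrrk1 and Cblb also held 9, on more eligible sequence (104.2 and 145.9 kb against 78.3 and 78.9 kb). Every intragenic peak in the first 9 of these genes overlapped H3K4me1. Of these 9, Zmiz1 and Eif2c2 had no Runx3 region at a promoter and the other 7 had one.

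The hosts differed in where their peaks lay. In Runx1 all 13 peaks were in later introns: 10 were in intron 2, between 5.42 and 115.5 kb from the 5′ end of the gene, 1 was in intron 5 and 2 were in intron 6. The first intron of this transcript is short, and the long stretch between both Runx1 promoters is its intron 2. In Itpr1 all 12 peaks were in the 3′ part, between introns 44 and 61, and at least 232.2 kb from the 5′ end of a gene of 338.0 kb. Rapgef1 showed the reverse order, with 8 of 11 peaks in intron 1, between 5.23 and 53.1 kb from the 5′ end. Eif2c2 had 7 of 9 peaks in intron 1 and Galnt2 6 of 9. Zmiz1 had 2 of 13 peaks in intron 1, and Fyn had 1 of 10. Prex1 had 5 of 10 there and Rin3 5 of 11.

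One more gene model stood above these. Gm20388 is a predicted coding gene whose body runs over 4435 kb of chromosome 8 and holds 72 other coding genes whole. It was credited with 52 intragenic peaks, some of which lie in those genes as well, and Galnt2 is at its 3′ end. There were 16 coding gene models that hold 5 or more other coding genes, and 30 intragenic peaks had no host but such a model. Without these models 3049 intragenic peaks remained and the ratio of first to later introns was 1.58.

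**Figure D3:**
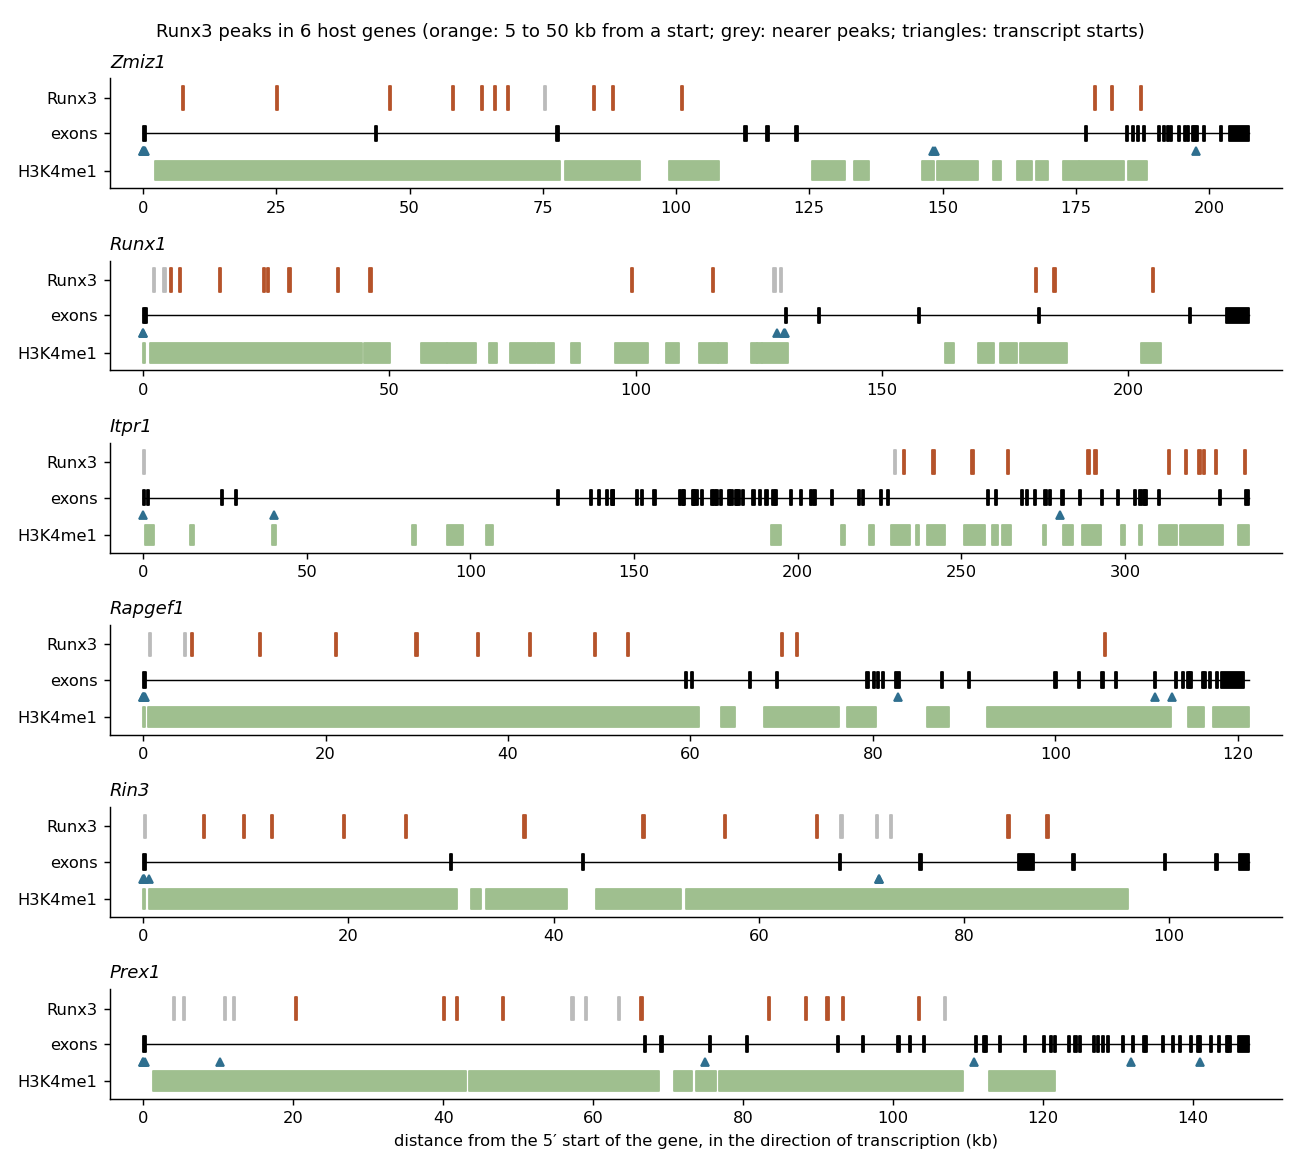
Each row is 1 host gene drawn from its 5′ start in kb, with Runx3 regions on top. Orange marks intragenic peaks, and grey marks other Runx3 regions, under 5 kb or at least 50 kb from the nearest TSS. The grey mark at 229.5 kb of Itpr1 is beyond 50 kb, although the heading calls grey peaks nearer. Exons of the coding transcript are black, H3K4me1 regions are green and triangles are transcript starts of the host gene alone. Starts of other genes, which also count for the distance rule, are not drawn. Marks thinner than the line are drawn wider than they are. The orange peaks fill intron 1 of Rapgef1 (8 of 11) and the long intron 2 of Runx1, while those of Itpr1 all lie towards the 3′ end, beyond 232.2 kb.

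The densest runs, counted as peaks of 1 gene inside 20 kb, were in Smad3, which carries signals of the TGF-beta receptor to the nucleus. All 8 of its intragenic peaks were in intron 1, in 17.9 kb and in 1 H3K4me1 region, between 20.1 and 37.9 kb from the 5′ end. Eif2c2 had 7 peaks in 17.0 kb and Fyn 6 in 18.6 kb. Ppp2r5c, a regulatory subunit of protein phosphatase 2A, had 5 in 6.85 kb, and Fam107b had 5 in 7.56 kb. The widest intragenic peaks were single regions of 2599 bp in intron 4 of Fam65c, 2514 bp in intron 6 of Fnbp1, 2382 bp in intron 22 of Eps15l1, 2370 bp in intron 1 of Arl6ip5 and 2341 bp in intron 8 of Selp, the gene of P-selectin. All 5 overlapped H3K4me1.

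Genes on lists of NKC-related genes were hosts more often than coding genes at large. The lists cover kinases and adaptors, cytokine signalling, transcription factors, adhesion, NK receptors and cytotoxic genes, and since they were chosen with earlier results of these data known, the shares are descriptions. Over the 6 lists together, 94 of the 193 genes with eligible sequence were hosts, 48.7% (41.8 to 55.7%), against 12.3% of all coding genes, and they held 259 intragenic peaks at 28.1 per Mb against 5.90 per Mb. Of the 94 hosts, 60 held 2 or more and 59 had a promoter peak, where 647 and 810 of all 1764 hosts did. Most genes of these lists with eligible sequence and no intragenic peak had a promoter peak as well. The higher promoter share of hosts over all coding genes is thus not shown within the lists. The share was above that of all coding genes in each quartile of eligible sequence, at 4.55, 28.3, 56.1 and 71.4% against 1.73, 7.69, 12.9 and 25.8%, though the lowest quartile rests on 1 host of 22 genes. The lists were also more marked, with H3K4me1 over 34.1% of their eligible sequence against 6.76% for all coding genes, and per Mb of marked sequence the density was 81.9 on the lists and 84.4 over all coding genes.

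Kinases and adaptors that act below activating receptors formed 1 of these lists, with 21 hosts of 40 genes (52.5%) and 72 intragenic peaks at 31.7 per Mb. Fyn held 10. Cblb, a ubiquitin ligase that restrains receptor signalling, held 9, all in later introns. Tec, a kinase of the Btk family, held 7, of which 6 were in later introns. Prkch, a protein kinase C, held 5, all in intron 1, and Pik3r1, the regulatory subunit of PI3 kinase, held 5, all in later introns.

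Among cytokine receptors, Jak kinases, Stat factors and Smad factors, 15 of 36 genes were hosts (41.7%), with 38 intragenic peaks at 32.4 per Mb. Smad3 held 8 and Tgfbr3, a coreceptor for TGF-beta, held 5 in later introns. Jak1, which is shared by many cytokine receptors, held 4, of which 2 were in intron 1. Il18r1, a chain of the receptor for interleukin-18, held 3 in later introns and Stat5b held 3, of which 2 were in intron 1.

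Lymphoid transcription factors had 28 hosts of 47 genes (59.6%) and 95 intragenic peaks at 30.1 per Mb. After Runx1 with 13 came Ikzf1, which encodes Ikaros, with 7, all in later introns. Nfatc1, a factor that is switched on by calcium, held 6 in later introns, and Fli1, of the ETS family, held 6 in intron 1, all 6 in 1 H3K4me1 region. Foxp1 held 5, of which 4 were outside the coding transcript used. Genes of adhesion and migration had the highest share, with 22 hosts of 30 (73.3%), but mostly 1 peak each: 38 peaks at 22.5 per Mb, with 9 hosts of 2 or more. Itga2, the integrin chain known as DX5 or CD49b, held 5, of which 3 were in intron 1. Itgb2, the common chain of the leukocyte integrins, held 3 in intron 1, Dock2, a Rac activator of lymphocytes, held 3, and Ezr held 2.

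NK receptor genes and cytotoxic genes had host shares whose intervals include the 12.3% of all coding genes. Of 24 NK receptor genes with eligible sequence, 4 were hosts (16.7%, 6.68 to 35.9%), with 9 intragenic peaks on 0.362 Mb, or 24.9 per Mb against 5.90 per Mb over all coding genes. These were Cd226, an activating receptor of NKC, with 5 in later introns, Crtam with 2, Klre1 with 1 and Slamf7 with 1. H3K4me1 covered 42.3% of the eligible sequence of this list against 6.76% over all coding genes. Per Mb of marked sequence the density was 58.8 midpoints on this list against 84.4. Of 16 cytotoxic and effector genes with eligible sequence, 4 were hosts (25%, 10.2 to 49.5%), with 7 peaks at 12.6 per Mb. On that list H3K4me1 covered 15.3% of eligible sequence, with 82.55 midpoints per Mb of marked sequence. Tnfsf10, which encodes the death ligand TRAIL, held 2, as did Rab27a and Rab27b, GTPases of secretory granules, and Gzmk held 1. The median gene on these lists had 7.75 and 15.4 kb of eligible sequence, against 17.9 kb over all coding genes and 45.5 kb on the kinase list. Counting Runx3 regions of any class, 24 of 25 NK receptor genes and 24 of 29 cytotoxic genes had one inside them or within 5 kb. That count was not made over all coding genes, and neighbouring genes can share a region in it.

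Of the 15 NKC markers, 12 had any eligible sequence and 4 were hosts (33.3%, 13.8 to 60.9%, against 12.3% of all coding genes). The list held 10 intragenic peaks on 0.160 Mb, or 62.6 per Mb against 5.90 over all coding genes. H3K4me1 covered 70.3% of its eligible sequence against 6.76%. Per Mb of marked sequence the density was 89.05 midpoints on the list against 84.37. Itga2 held 5 intragenic peaks, Tbx21, the T-box factor T-bet, held 2 in intron 1, Il18rap held 2 in exons and Klre1 held 1. Ncr1, Klrb1c, Klrd1, Klrk1, Il2rb, Eomes, Prf1, Gzma, Gzmb, Cd244 and Nkg7 held none, and of these Klrd1, Gzmb and Nkg7 had no sequence that the rule allows. Of these 11 genes, 9 had a Runx3 region at a promoter, Gzma and Cd244 being without one.

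Other lineages differed in degree. Over all coding genes 12.3% were hosts, at 5.90 peaks per Mb. T cell markers had 5 hosts of 14 (35.7%, 16.3 to 61.2%) at 20.6 peaks per Mb, namely Cd28 with 2 and Tcf7, Cd6, Ubash3a and Bcl11b with 1 each. B cell markers had 4 hosts of 13 (30.8%, 12.7 to 57.6%) at 8.24 per Mb, namely Pax5 with 2 and Fcer2a, Blk and Ebf1 with 1 each. The host shares of T and B cell markers were thus close to the 33.3% of the NKC markers. Itgax, with 1 peak, was the host among 11 myeloid markers (9.09%, 1.62 to 37.7%), at 3.89 per Mb. Neuronal genes were taken as long genes that lymphocytes are assumed not to use, which was not measured here. They had 2 hosts of 30, Nrxn3 with 2 peaks and Lsamp with 1. The density was 0.355 per Mb over 8.45 Mb of eligible sequence, of which H3K4me1 covered 0.244%. Counting Runx3 regions of any class, 5 of the 30 had one inside them or within 5 kb, with at most 7 in a gene. Neither use of the B, T and myeloid genes by NKC nor the part that cells of other types in the sort had in these values was tested.

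**Figure D4:**
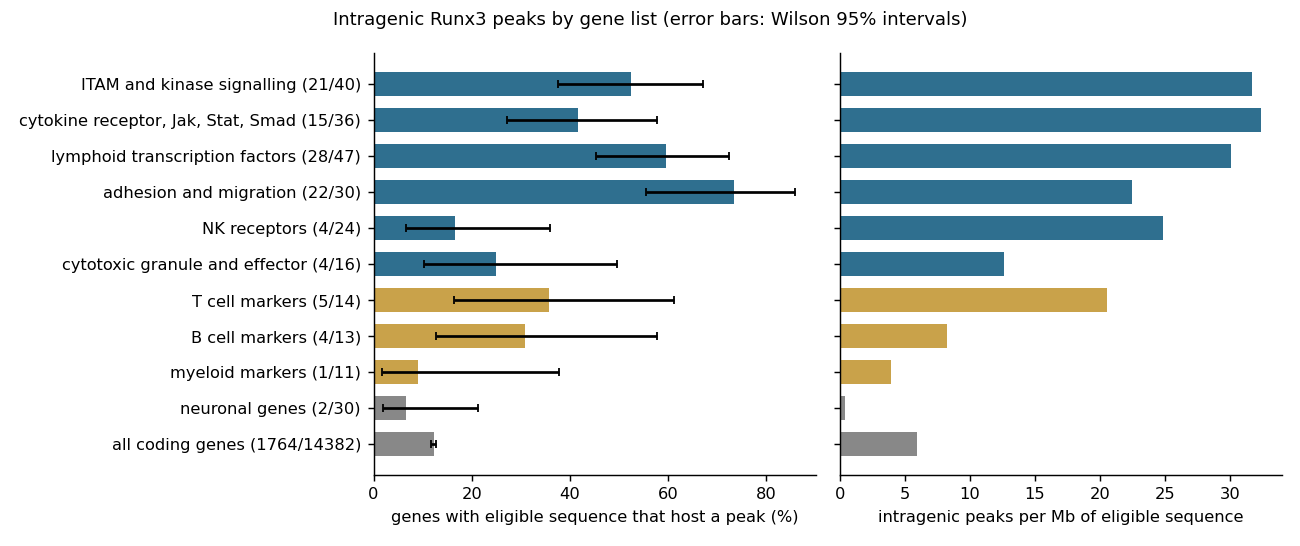
Bars give, for each gene list, the percent of genes with eligible sequence that hold an intragenic peak with its Wilson 95% interval (left) and the density of intragenic peaks per Mb of eligible sequence (right); hosts and genes are in brackets, blue marks lists of NKC-related genes, yellow markers of other cells, and grey neuronal genes and all coding genes. Kinase, cytokine, transcription factor and adhesion lists stand at 41.7 to 73.3% against 12.3% of all coding genes, and neuronal genes have 0.355 peaks per Mb.

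The RUNX consensus was in most intragenic peaks and close to their midpoints. The central 200 bp held a match in 2285 of 3079, 74.2% (72.6 to 75.7%), where 69.2% of all Runx3 regions did, 74.1% of the intergenic peaks and 61.5% of the regions under 1 kb from a TSS. Windows of 200 bp in the same eligible sequence that touch no Runx3 region held it in 26.3%, and in 31.1% where they lay in H3K4me1. Weighted to the GC content of the intragenic peaks, the latter was 34.4%. Over the whole peak the share was 94.5%. In the central 200 bp 1199 peaks had 1 match, 731 had 2, 355 had 3 or more and 794 had none. Matches reached 7.57 per kb in the 50 bp just before the midpoint and 7.53 in the 50 bp just after it, and were at 2.05 and 1.98 per kb at 450 to 500 bp on either side.

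Of the 4 forms of the consensus, TGTGGT was the most frequent, in the central 200 bp of 55.5% of intragenic peaks against 21.4% of regions under 1 kb from a TSS. TGTGGC was in 29.2% against 18.7%. The forms with a CpG went the other way, since TGCGGT was in 8.12% of the intragenic peaks where 18.1% of the near regions had it, and TGCGGC was in 3.57% where 20.6% had it. The intragenic peaks had 1.49 CpG per 100 bp in these windows and the regions near a TSS had 7.01. The sextet GGGCGG of SP1 was in 4.81% of intragenic peaks, 8.13% of intergenic peaks and 43.6% of regions near a TSS.

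Letters of other factors were also found more often than in unbound sequence. An ETS match (AGGAAGT or CGGAAGT) was in the central 200 bp of 21.1% of intragenic peaks against 6.97% of peak-free windows in H3K4me1. A RUNX and an ETS match no more than 50 bp apart were in 10.1% against 1.18%. The T-box letters AGGTGTGA were in 3.35% (2.77 to 4.04%) against 1.23%, and those of AP-1 (TGAGTCA or TGACTCA) in 7.24% against 3.84%. Intergenic peaks stood at 20.6, 9.87, 2.44 and 7.36% for these 4, so that the intervals of intragenic and intergenic peaks overlapped for each. Both strands were searched in all cases, and a match is a run of letters, not a measured site.

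The orientation of the RUNX letters to the host gene was close to that of unbound sequence in H3K4me1. In the 2990 peaks with 1 host, 2246 of 3839 matches read on the sense strand of the host, 58.5% (56.9 to 60.1%). The share was 55.5% in peak-free windows of eligible sequence, which lies below that interval. In those within H3K4me1 it was 57.6% (57.1 to 58.0%), which lies inside it. First-intron peaks had 60.8% (58.0 to 63.6%) and later-intron peaks 58.4% (56.4 to 60.4%). The intervals treat the matches of 1 peak as independent, and peaks with 1 match alone had 56.2% (53.3 to 59.0%). Over all matches the share was 58.2% for hosts on the plus strand and 58.8% for hosts on the minus strand.

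**Figure D5:**
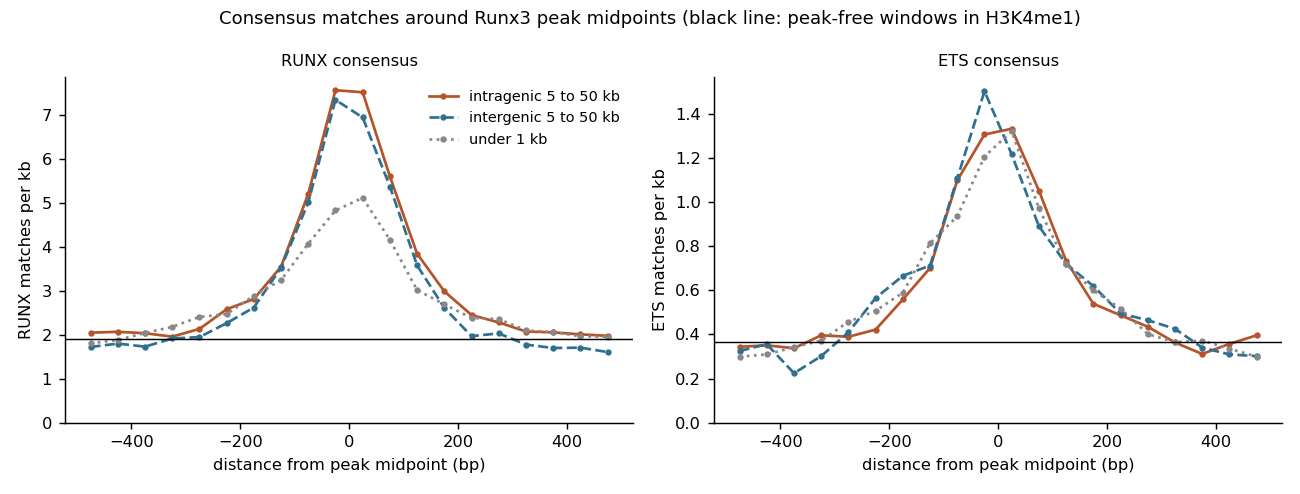
Lines give matches to the RUNX (left) and ETS (right) consensus per kb in bins of 50 bp by distance from the peak midpoint in bp, for intragenic peaks (orange), intergenic peaks of the same distance class (blue, dashed) and regions under 1 kb from a TSS (grey, dotted); the black line is the density in peak-free windows in H3K4me1. RUNX matches of intragenic peaks rise from about the level of that line to 7.57 per kb at the midpoint, and ETS matches to 1.33 per kb.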

How the data were processed

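Chromatin of resting splenic NKC was fixed, sheared to fragments of about 300 bp and sequenced as reads of 40 bp. Per the labels and the methods of the study, the authors aligned reads to mm9 with ELAND (CASAVA 1.7) and called regions with MACS, against NIS, on the joined reads of the biological repeats, with the larger read set scaled down to the smaller. The deposited files give chromosome, start and end of each region (other units, such as scores or reads, were not used here); the NIS reads were not analysed here.

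From these positions midpoints, distances to GENCODE M1 starts, host genes, introns, H3K4me1 overlaps (1 bp or more) and consensus matches were computed (python 3.11.15, numpy 2.4.6, pandas 2.3.3, scipy 1.17.1, pysam 0.24.0). Eligible sequence was read on a grid of 100 bp. A peak counted for each coding gene that holds its midpoint; its intron was taken in the host with the nearest own start. Intervals are Wilson 95% intervals for shares and counting intervals for density ratios; the density code was tested on simulated data. Members and gene lists were chosen with earlier results of these data known. Where several models share a symbol the longest was used, and 2 listed symbols matched no gene model. Named genes are the 10 fullest hosts, the 5 fullest hosts of each list, the 5 widest peaks, the 5 densest runs, the 3 peaks at each edge and the NKC markers (Runx3 regions just outside the edges are given beside them). Sequences are those of the fullest hosts, without the spanning model Gm20388. Some items that these rules name are not reported here.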

Additional observations from a re-analysis of the deposited data

How the results depend on the processing

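Of 54 alternatives, 43 stayed within the interval of the reported value or, for the number of intragenic peaks, within 1.5 times it. Counted per Mb of H3K4me1 regions, a choice made after seeing the data, the ratio of first to later introns turned from 1.6 to 0.691; under the other 10 alternatives it ranged from 1.51 to 1.65. With peaks at least as wide as the median of all peaks, 1510 intragenic peaks were left, 99.3% overlapped H3K4me1, 97.0% held the RUNX consensus, 29.0% of hosts held 2 or more and hosts exceeded other genes in promoter peaks by 11.6 percentage points instead of 16.9. That difference was 24.4 points with 1 TSS per coding gene and 10.1 points with promoters at the 5′-most TSS only. Hosts with 2 or more were 33.9% after merging peaks under 1 kb apart. H3K4me1 regions wider than their median overlapped 91.1% of intragenic peaks. The central 200 bp instead of the whole peak held the RUNX consensus in 74.2%. The cause of these shifts was not tested, beyond the fewer peaks, regions or bases that the narrower settings use. Leaving out the spanning gene models was also chosen after seeing the data. No paired analysis was possible because each antibody has 1 sample and no test was run; for the same reason no replicate could be left out. Region lists without read counts cannot show weak binding under the calling threshold.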
